A study of Mus musculus with 4 samples.

Results

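The FGF signalling system of mouse bone marrow stromal cells was examined through 10 genes chosen by name for their role: the ligands Fgf2, Fgf7 and Fgf18, the receptors Fgfr1, Fgfr2, Fgfr3 and Fgfrl1, and the Sprouty feedback inhibitors Spry1, Spry2 and Spry4. All 10 were found among the 24346 rows of the expression table. RNA-seq had been performed on bone marrow–derived mesenchymal stem/progenitor cells (mBMSCs) of wild-type C57BL/6 mice (C57BL/6J in the methods) aged 3 months, 72 h after transfection with scrambled siRNA (siScr, n = 2) or siRNA against Zbp1 (siZBP1, n = 2). The comparison asked how expression differs once ZBP1, a sensor of Z-form nucleic acid, is depleted. The cells were plastic-adherent marrow cultures freed of floating cells by washing, without a sort, and the samples of both groups received the same transfection reagent.

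FGF ligands bind cell-surface receptor tyrosine kinases together with heparan sulfate chains, and the activated receptor signals through the docking protein FRS2 to the Ras–ERK cascade. ERK activity in turn induces inhibitors, among them the Sprouty proteins, which damp the same cascade. In bone, FGFR1 to FGFR3 are expressed in the osteoblast and chondrocyte lineages, FGF2 and FGF18 act on those cells, and FGF7 is a product of stromal cells that signals mainly to epithelia. FGFRL1 binds ligand but lacks the tyrosine kinase domain of the other receptors.

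The depletion of ZBP1 was accompanied by lower expression of most of the abundant genes of this system. Fgf7, Fgfr1, Fgfr2, Fgfr3 and Spry1 were lower in siZBP1 cells, from 1.67-fold for Fgfr1 to 4.76-fold for Fgfr2 by the ratio of the group means, while Fgfrl1 and Spry2 did not pass the test and none of the 10 passed it in the higher direction. The test was limma on log2(FPKM + 1), where FPKM counts fragments scaled by transcript length and by the mapped reads of the library, over all 11959 genes with a mean of at least 1 FPKM, with a Benjamini–Hochberg adjusted p under 0.05 as the threshold. Of the 10 genes, 7 reached that mean and 5 of them were called lower, against 14.8% of all genes tested. In the higher direction 0 were called, against 13.5% of all genes tested. The 10 genes were chosen with earlier results of these data known, so these counts are not independent evidence of an excess. Fgfr3 reached the mean only through its level in siScr cells, so that its count as tested was itself tied to a difference. Fgf2, Fgf18 and Spry4 lay under it. With siZBP1 replicate 1 or 2 left out, Fgf7 alone of the 5 stayed past the threshold, and the highest adjusted p was 0.110 for Fgfr1, 0.0815 for Fgfr2, 0.138 for Fgfr3 and 0.0684 for Spry1. The samples of siScr and siZBP1 were fully separated for all 7 genes tested, and for 68.4% of all genes tested.

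**Figure D1:**
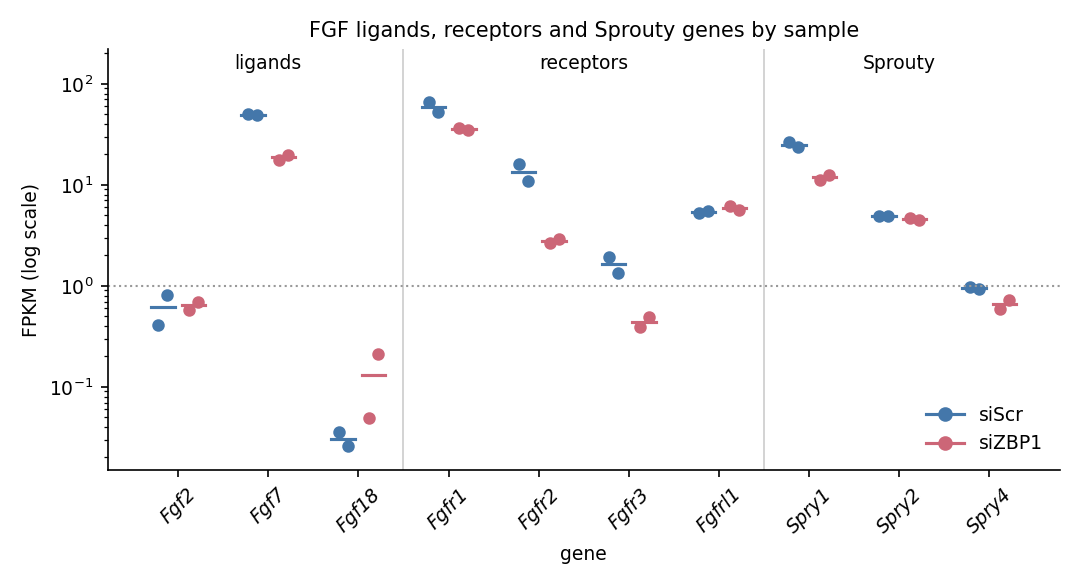
FPKM of the 10 genes in each sample on a log axis, with siScr in blue and siZBP1 in red; each point is 1 sample, each short line the mean of 2 samples, and the dotted line marks 1 FPKM. Fgf7, Fgfr1, Fgfr2, Fgfr3 and Spry1 lie lower in both siZBP1 samples, Spry2 and Fgfrl1 lie close to their siScr values, and Fgf2 overlaps between the groups.

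The targeted gene was examined first. Zbp1 was at 86.0 and 62.0 FPKM in the siScr samples and at 11.5 and 11.6 FPKM in the siZBP1 samples, an estimated log2 change by limma of -2.56 ± 0.16 (SE) and an adjusted p of 0.00322. Without siZBP1 replicate 1 or 2 the adjusted p was 0.0618 and 0.0510. The study describes more than one siRNA against Zbp1, and which of them was used for each sequenced sample is not given in the sources used here. Their targets were located on chromosome 2 of GRCm38 (the mm10 assembly), on the minus strand. They are shown because the seed of an siRNA, bases 2 to 8 of its antisense strand, can also pair with 3' UTRs of other transcripts. The bases in capitals are those that pair with the seed; siZBP1-1 lies in the coding sequence of Zbp1 at chr2:173215780-173215798 and siZBP1-2 in its 5' UTR at chr2:173218901-173218919.

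siZBP1-1 target: gggaatgacgaCAGCCAAa
siZBP1-2 target: gggtatttgttTCCGGGAt

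The seed word of siZBP1-1 was present in a 3' UTR of 3 of the 10 genes (Fgf2, Fgfr1 and Spry2), and of 13.2% of the tested genes with an annotated 3' UTR of at least 50 bases. The seed word of siZBP1-2 was present in 1 of the 10 (Spry4), and in 2.74% of the tested genes. The counts out of 10 include genes under the filter, among them Fgf2 and Spry4, whereas the percentages cover tested genes only. The sites for siZBP1-1 are shown with their flanks, on GRCm38: in Fgf2 at chr3:37407787-37407793 and in Fgfr1 at chr8:25574918-25574924, both on the plus strand, and in Spry2 at chr14:105892488-105892494 on the minus strand.

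Fgf2 site: ctagttaaCAGCCAAtaaatgtt
Fgfr1 site: agacctccCAGCCAAgccttcta
Spry2 site: agctaaagCAGCCAAcactccta

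Of the genes that hold the word, Fgfr1 was lower, Spry2 did not pass the test, and Fgf2 was too low to be tested. The annotated 3' UTRs of Fgf7, Fgfr2, Fgfr3 and Spry1, which had the larger falls, hold the seed word of neither siRNA. The part of seed matches in these levels was not tested.

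Among the ligands, Fgf7 was by far the most abundant and it fell. The Fgf7 gene lies on chromosome 2 of GRCm38, from 126034658 to 126091185. It was at 50.03 and 48.83 FPKM in the siScr samples and at 17.7 and 19.8 FPKM in the siZBP1 samples. Both siZBP1 values were thus well under both siScr values, and replicates of a group lay close together. The group mean went from 49.4 ± 0.849 FPKM down to 18.7 ± 1.53 FPKM (SD of 2 samples), 2.64-fold, with an estimated log2 change by limma of -1.36 ± 0.07 (SE) and an adjusted p of 0.00242. Fgf7 was the only one of the 5 that stayed past the threshold with any one of the samples left out.

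Fgf2, which acts on stromal cells themselves, was scarce. Its values were 0.408 and 0.819 FPKM in siScr cells and 0.581 and 0.700 FPKM in siZBP1 cells. The siZBP1 values lay between the siScr values, so that the groups overlapped, and without a filter on low values limma gave a log2 fold change of 0.03 with a 95% interval of -0.36 to 0.43. The exons of Fgf2 share 9.44% of their bases with those of Nudt6 on the opposite strand, and Nudt6 was the more abundant at 4.28 and 3.70 FPKM in the group means. Whether strand was used in counting is not given in the sources used here, so reads from the shared bases cannot be told apart.

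Fgf18, a ligand of the osteoblast lineage, was close to the detection limit. It was at 0.0354 and 0.0259 FPKM in siScr cells and at 0.0490 and 0.211 FPKM in siZBP1 cells. The spacing of the lowest values in the table gives relative depths of 1.00, 1.34, 0.717 and 1.16 for siScr replicates 1 and 2 and siZBP1 replicates 1 and 2. On that scale the values of Fgf18 stand as 1.00, 0.977, 0.992 and 6.90, so that if siScr replicate 1 held 1 fragment, so did 2 other samples, and siZBP1 replicate 2 held about 7. A difference in Fgf18 was not detectable at this depth.

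All receptor genes with a kinase domain that were tested were lower. Fgfr1, on chromosome 8 from 25513654 to 25575718, was the most abundant of the 10 genes in both groups. It was at 65.6 and 52.8 FPKM in siScr cells and at 36.5 and 34.6 FPKM in siZBP1 cells. The groups were separate, although the siScr samples differed from each other by more than the siZBP1 samples did. The group mean went from 59.2 ± 9.02 FPKM down to 35.5 ± 1.33 FPKM (SD of 2 samples), with an estimated log2 change by limma of -0.71 ± 0.11 (SE) and an adjusted p of 0.0152.

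Fgfr2, on chromosome 7, has a role in osteoblast proliferation and differentiation and showed the largest fall among the 10 genes by the ratio of the group means. Its values were 16.0 and 10.8 FPKM in siScr cells and 2.68 and 2.94 FPKM in siZBP1 cells. Even the lower siScr value was well above the higher siZBP1 value. The group mean went from 13.4 ± 3.67 FPKM down to 2.81 ± 0.182 FPKM (SD of 2 samples), 4.76-fold, with an estimated log2 change by limma of -1.89 ± 0.19 (SE) and an adjusted p of 0.00630. The FPKM values are given per gene, so the splice forms of Fgfr2 that differ in ligand choice are not separated. Of the Fgfr2 exon bases, 3.04% are shared with Ctbp2 on the same strand, so strand cannot separate reads there.

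Fgfr3, a receptor best known from growth-plate cartilage that lies on chromosome 5 from 33721674 to 33737068, was low in both groups. It was at 1.94 and 1.34 FPKM in siScr cells and at 0.389 and 0.493 FPKM in siZBP1 cells. The groups were separate, with a ratio of 3.72-fold and an estimated log2 change by limma of -0.87 ± 0.17 (SE) and an adjusted p of 0.0260; adding 1 to such low values shrinks the fold change. With quantile normalization its adjusted p was 0.0531, and without siZBP1 replicate 1 or 2 it was 0.138 and 0.107. Of its exon bases, 13.9% are shared with G630022F23Rik on the opposite strand.

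Fgfrl1, the receptor without a kinase domain, did not pass the test. Its values were 5.22 and 5.46 FPKM in siScr cells and 6.19 and 5.70 FPKM in siZBP1 cells. The siZBP1 samples were slightly above the siScr samples without overlap, and the limma log2 fold change was 0.13 with a 95% interval of -0.09 to 0.35 (adjusted p = 0.299).

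**Figure D2:**
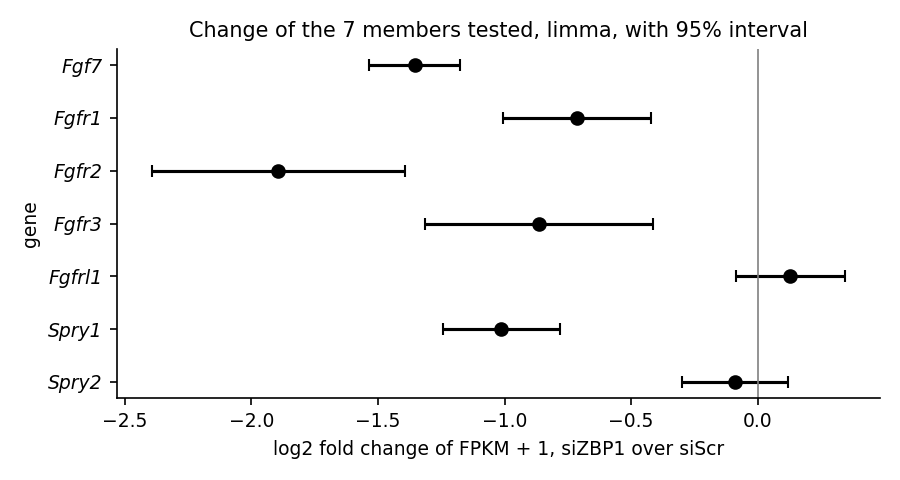
Limma log2 fold change of FPKM + 1, siZBP1 over siScr, for the 7 genes with a mean of at least 1 FPKM; points are estimates from 2 samples per group and bars are 95% intervals. The intervals of Fgf7, Fgfr1, Fgfr2, Fgfr3 and Spry1 lie below 0, and those of Fgfrl1 and Spry2 include 0.

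The makeup of the receptor transcripts was also compared. The summed FPKM of Fgfr1, Fgfr2 and Fgfr3 was 83.5 and 65.0 in siScr cells and 39.5 and 38.0 in siZBP1 cells. Of that sum, Fgfr2 made up 19.2% and 16.6% in siScr cells and 6.79% and 7.74% in siZBP1 cells, and Fgfr1 made up 79.9% ± 1.97 in siScr cells and 91.6% ± 0.893 in siZBP1 cells (SD, n = 2 each). These shares are taken within a sample and do not depend on scaling between libraries. With 2 samples against 2, an exact two-sided permutation test of a single share cannot give a p below 0.333, so the shares are given as values.

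Of the Sprouty genes, Spry1 was lower. Spry1, on chromosome 3 from 37639947 to 37644598, was the most abundant, at 26.6 and 23.4 FPKM in siScr cells and at 11.3 and 12.5 FPKM in siZBP1 cells. The siZBP1 samples were near one level and the groups were separate. The group mean went from 25.0 ± 2.23 FPKM down to 11.9 ± 0.838 FPKM (SD of 2 samples), 2.10-fold, with an estimated log2 change by limma of -1.01 ± 0.09 (SE) and an adjusted p of 0.00495. Of its exon bases, 24.4% are shared with Gm42922 on the opposite strand, and reads there cannot be told apart.

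Spry2 was at 4.92 and 4.90 FPKM in siScr cells and at 4.67 and 4.44 FPKM in siZBP1 cells. The groups were narrowly separate, and the limma log2 fold change was -0.09 with a 95% interval of -0.30 to 0.12 (adjusted p = 0.450). The interval of Spry1 was -1.24 to -0.78; the difference between the genes was not tested. Spry4 was at 0.976 and 0.940 FPKM in siScr cells and at 0.591 and 0.722 FPKM in siZBP1 cells. Both of its siZBP1 values were the lower ones, but without the filter the limma log2 fold change of -0.24 did not pass the threshold (95% interval -0.47 to -0.02, adjusted p = 0.132). Spry2 thus made up a larger part of the Sprouty transcripts in siZBP1 cells, with 28.2% and 25.2% of the sum of Spry1, Spry2 and Spry4 against 15.1% and 16.7% in siScr cells.

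**Figure D3:**
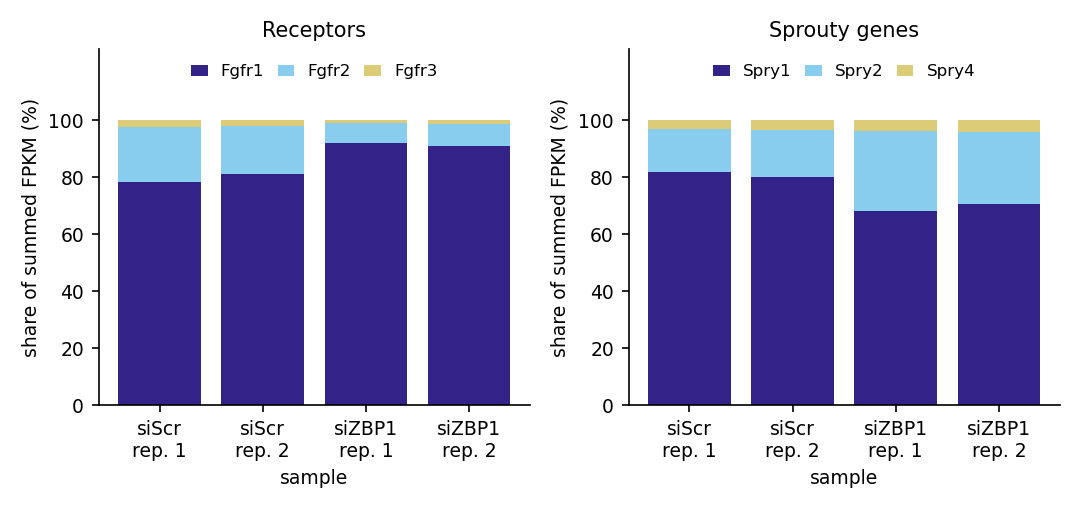
Share of each gene in the summed FPKM of Fgfr1, Fgfr2 and Fgfr3 (left) and of Spry1, Spry2 and Spry4 (right), in percent, 1 bar per sample. Fgfr2 stands at 6.79% and 7.74% in the siZBP1 samples, and Spry2 stands at 28.2% and 25.2% there.

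Ordered by their mean FPKM, which is scaled by transcript length, the genes ran in siScr cells from Fgfr1 through Fgf7, Spry1, Fgfr2, Fgfrl1, Spry2, Fgfr3, Spry4 and Fgf2 down to Fgf18, and no pair of neighbours overlapped in its replicate values. In siZBP1 cells the first 3 kept their places and Fgfr2 moved from rank 4 to rank 6, behind Fgfrl1 and Spry2. There the replicate values of Spry4 and Fgf2 overlapped, and so did no other pair of neighbours.

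The promoters of Fgf7, Spry1 and Spry2 are shown because Wnt/β-catenin signaling, whose TCF factors bind a Wnt response element, was another subject of the study, and because Spry1 fell while Spry2 did not pass the test. They cover the start site and the bases upstream of it on GRCm38.p6, from RefSeq: Fgf7 at chr2:126034408-126034707 and Spry1 at chr3:37639697-37639996 on the plus strand, and Spry2 at chr14:105896770-105897069 on the minus strand. Capitals mark the Wnt response element.

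Fgf7 promoter: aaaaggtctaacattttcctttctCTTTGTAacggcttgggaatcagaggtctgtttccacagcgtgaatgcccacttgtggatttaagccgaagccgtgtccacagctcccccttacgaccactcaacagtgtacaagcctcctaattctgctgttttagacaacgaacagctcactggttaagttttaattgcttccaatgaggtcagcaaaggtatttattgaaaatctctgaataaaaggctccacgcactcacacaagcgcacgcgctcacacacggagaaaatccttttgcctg
Spry1 promoter: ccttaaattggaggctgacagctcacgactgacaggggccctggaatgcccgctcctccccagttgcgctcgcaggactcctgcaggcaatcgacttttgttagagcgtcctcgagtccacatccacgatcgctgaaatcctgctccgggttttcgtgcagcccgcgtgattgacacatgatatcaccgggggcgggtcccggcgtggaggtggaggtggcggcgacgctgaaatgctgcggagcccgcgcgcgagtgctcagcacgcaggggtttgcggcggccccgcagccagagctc
Spry2 promoter: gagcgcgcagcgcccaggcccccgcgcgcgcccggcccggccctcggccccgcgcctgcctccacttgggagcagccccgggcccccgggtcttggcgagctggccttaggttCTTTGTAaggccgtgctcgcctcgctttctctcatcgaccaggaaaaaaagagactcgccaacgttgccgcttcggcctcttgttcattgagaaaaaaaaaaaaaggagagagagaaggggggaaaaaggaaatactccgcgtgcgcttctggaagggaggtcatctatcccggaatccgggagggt

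The element was searched on both strands as the word CTTTGAA, the word CTTTGAT, the word CTTTGTA and the word CTTTGTT. A promoter was found in the RefSeq table for 8 of the 10 genes; the element was present in those of Fgf7 and Spry2, and in 16.9% of 32851 promoters in all. Fgf7 fell and Spry2 did not pass the test, and the part of the element in their levels was not tested. For Zbp1 the paper searched a wider window around the start site, so its search and this one are not alike. The ETS word CCGGAAG, whose factors act downstream of ERK, was found in Fgfrl1 alone among the 8, against 8.86% of all promoters, and the RUNX word TGTGGT in none of them, against 16.8%. Such matches describe letters within these windows and do not show binding.

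The other genes of the pathway were followed through 5 lists with 103 genes, of which 70 reached a mean of 1 FPKM. By limma, 18 were lower and 12 were higher, with a median log2 fold change of -0.03 against 0.00 for all genes tested. The backgrounds for these counts are the 14.8% and 13.5% of all genes tested. The lists, too, were chosen with earlier results of these data known. With siZBP1 replicate 1 or 2 left out, limma called 1 pathway gene, Gpc1, lower and 0 higher.

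**Figure D4:**
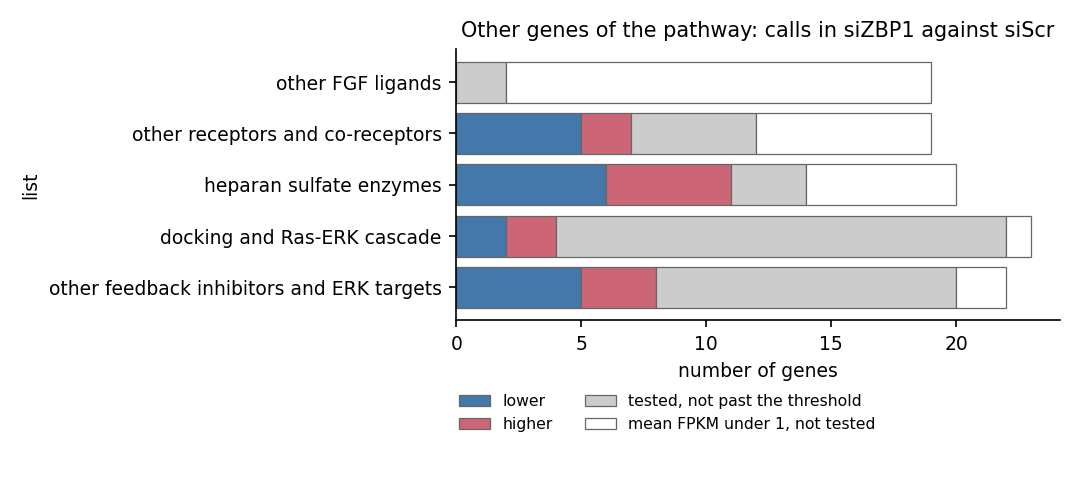
Number of genes in each of the 5 lists that were lower (blue) or higher (red) in siZBP1 cells by limma at an adjusted p under 0.05, did not pass the threshold (grey), or had a mean under 1 FPKM and were not tested (white). The Ras–ERK list holds 18 of 22 tested genes without a call, the heparan sulfate enzymes 6 lower and 5 higher of 14. Over all genes tested, 14.8% were lower and 13.5% higher.

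No other FGF ligand stood out. Of 19, only Fgf11 and Fgf13 reached a mean of 1 FPKM, both of the intracellular kind that is not secreted, and 0 were called by limma in either direction; 7 were listed at 0 in all samples. Fgf11 was at 1.51 and 1.44 FPKM and Fgf13 at 1.72 and 1.57 FPKM in the group means.

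Of the other receptors, co-receptors and binding proteins, 12 were tested, 5 were lower and 2 were higher. The shares over all genes tested were 14.8% lower and 13.5% higher. The falls included abundant carriers of heparan sulfate chains. Gpc1, a membrane-anchored glypican, was at 168.2 and 162.8 FPKM in siScr cells and at 79.1 and 75.9 FPKM in siZBP1 cells, an estimated log2 change by limma of -1.09 ± 0.04 (SE) and an adjusted p of 0.00199. The syndecans Sdc1 and Sdc3 fell from 59.0 to 32.1 FPKM and from 257.4 to 149.0 FPKM in the group means (limma adjusted p = 0.00338 and 0.00543). Gpc2 rose from 1.24 to 2.43 FPKM (limma adjusted p = 0.0419). Fgfr4 was listed at 0 in all samples.

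The enzymes that build and edit heparan sulfate moved in both directions, with 6 of 14 tested genes lower and 5 higher. Against this, 14.8% of all genes tested were lower and 13.5% higher. Among those that build the chain, Glce, the C5-epimerase, fell from 20.6 and 18.4 to 7.61 and 7.12 FPKM (limma log2 fold change -1.29 ± 0.08 SE, adjusted p = 0.00322). The 6-O-sulfotransferase gene Hs6st2 fell from 4.04 to 2.02 FPKM and the polymerase gene Ext1 from 48.9 to 35.7 FPKM in the group means (limma adjusted p = 0.0100 and 0.0160). Others that build the chain rose, as given below for Hs3st1 and Extl3. Both extracellular sulfatases, which remove 6-O-sulfate groups from the finished chain, were higher. Sulf1 was at 12.6 and 12.1 FPKM in siScr cells and at 23.7 and 24.2 FPKM in siZBP1 cells (limma log2 fold change 0.91 ± 0.05 SE, adjusted p = 0.00282). Sulf2 was at 18.2 and 21.4 FPKM in siScr cells and at 40.1 and 39.6 FPKM in siZBP1 cells (limma log2 fold change 0.98 ± 0.09 SE, adjusted p = 0.00503). The 3-O-sulfotransferase gene Hs3st1 rose from 0.596 to 1.99 FPKM, and Extl3, a chain-initiating enzyme, from 36.6 to 42.4 FPKM (limma adjusted p = 0.0189 and 0.0251). Hs3st1 reached the mean of 1 FPKM only through siZBP1 cells, so that its place among the tested genes was tied to its difference. Of these, Glce, Sdc1, Sdc3, Sulf1 and Sulf2 hold the seed word of siZBP1-1 in a 3' UTR, and Extl3 that of siZBP1-2. Over the 70 tested genes of the lists, 14 hold the word of siZBP1-1, of which 6 were lower and 2 higher. The word of siZBP1-2 is held by 2, of which 0 were lower and 2 higher. Of all tested genes with an annotated 3' UTR, 13.2% hold the word of siZBP1-1 and 2.74% that of siZBP1-2. The share called lower or higher among all genes that hold either word was not computed. The part of these matches in the changes was not tested.

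**Figure D5:**
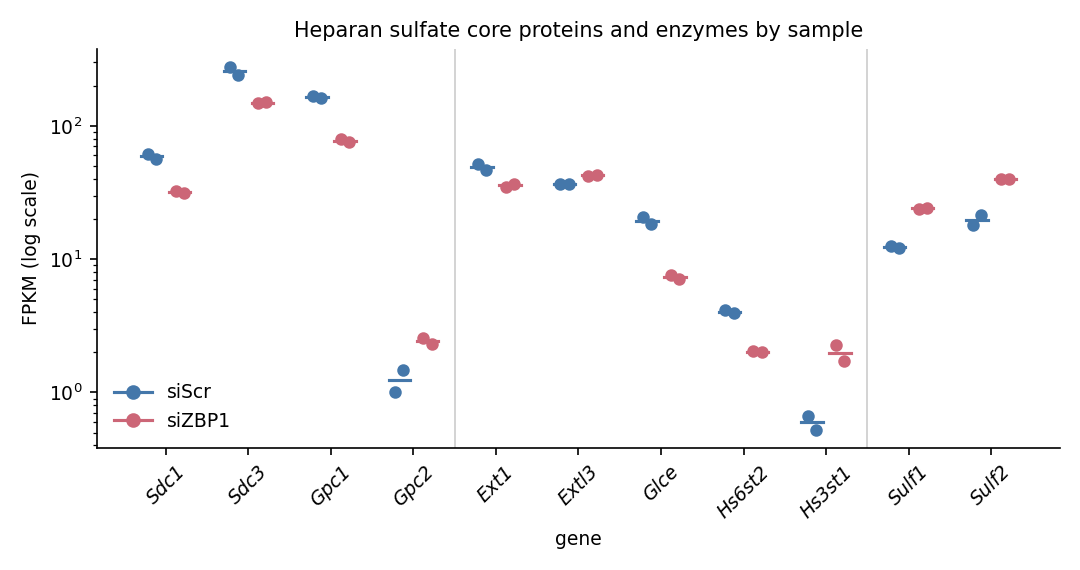
FPKM by sample, on a log axis, of heparan sulfate core proteins (left), chain-building enzymes (middle) and sulfatases (right), with siScr in blue and siZBP1 in red; points are samples and short lines the means of 2 samples. Sdc1, Sdc3, Gpc1, Ext1, Glce and Hs6st2 are lower in siZBP1 cells, whereas Gpc2, Extl3, Hs3st1, Sulf1 and Sulf2 are higher.

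Of 22 tested genes for docking proteins and the Ras–ERK cascade, 2 were lower and 2 were higher, where 14.8% and 13.5% of all genes tested were called in these directions. The falls were those of Nras, a Ras GTPase, from 36.5 to 22.7 FPKM and of the adaptor Shc1 from 43.1 to 28.2 FPKM in the group means (limma adjusted p = 0.00503 and 0.00485), and Shc1 holds the seed word of siZBP1-1 in a 3' UTR. Mapk3, which encodes ERK1, was at 84.9 and 86.6 FPKM in siScr cells and at 102.5 and 97.5 FPKM in siZBP1 cells (limma log2 fold change 0.22, adjusted p = 0.0274). The adaptor Grb2 was at 78.7 and 82.2 FPKM in the group means (limma log2 fold change 0.06, 95% interval -0.05 to 0.17).

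Among the other feedback inhibitors and ERK targets, 5 of 20 tested genes were lower and 3 were higher. Over all genes tested, 14.8% were called lower and 13.5% higher. The immediate early transcription factor gene Egr1 fell from 10.7 and 11.1 to 4.45 and 5.19 FPKM (limma log2 fold change -1.04 ± 0.09 SE, adjusted p = 0.00503), and Myc from 21.4 to 9.71 FPKM in the group means (limma adjusted p = 0.00526). Fosl1, of the AP-1 family, and Etv4, an ETS factor induced by FGF signalling, fell from 1.79 to 0.810 FPKM and from 1.91 to 0.803 FPKM (limma adjusted p = 0.0375 and 0.0439), and both reached the mean of 1 FPKM only through siScr cells, so that their place among the tested genes was tied to the difference. Lgals3, named only for its abundance on the list, fell from 1227 to 1008 FPKM (limma adjusted p = 0.0257). Whether it follows ERK activity in these cells was not tested. Myc is also among the genes that the paper lists as down-regulated and related to Wnt signaling. The ERK targets Dusp6 and Etv5 did not pass the test. Dusp6, an ERK phosphatase, was at 15.7 and 18.4 FPKM in siScr cells and at 15.4 and 14.8 FPKM in siZBP1 cells (limma log2 fold change -0.16, 95% interval -0.39 to 0.07), and Etv5, a close relative of Etv4, at 10.8 and 9.30 FPKM in the group means (limma log2 fold change -0.18, 95% interval -0.57 to 0.21). The Sprouty-related inhibitors Spred1 and Spred3 were higher, at 44.2 against 35.6 FPKM and at 4.35 against 2.83 FPKM (limma adjusted p = 0.0237 and 0.0380), and Spred3 holds the seed word of siZBP1-2. Among the genes named from the lists, the limma calls of Gpc2, Extl3, Mapk3, Spred3, Etv4, Fosl1 and Lgals3 were each lost under at least 1 alternative fit to all samples, at adjusted p-values up to 0.0699 for Spred3.

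Macrophage markers were abundant in all samples, and fewer cells of a type and less RNA per cell cannot be told apart in bulk samples. Of 11 macrophage markers tested, 7 were higher and 0 lower by limma in siZBP1 cells. For this and the other marker counts, the shares over all genes tested were 14.8% lower and 13.5% higher. The FPKM of the 12 on the macrophage list summed to 4852 and 5764 in siScr cells and to 8461 and 7917 in siZBP1 cells. That list was led by Lyz2, Cd68 and Csf1r. Most of the difference in its sum was Lyz2, with group means of 3230 and 5636 FPKM. The 4 tested markers that did not pass the test were Adgre1, Cd14, Ptprc and Mertk. Of 12 mesenchymal markers tested, 6 were lower and 1 was higher, and the sum over the list of 13, led by Col1a1, Itgb1 and Ly6a, was 3999 and 3392 in siScr cells and 1847 and 1924 in siZBP1 cells. Most of the difference in that sum was Col1a1, which is also on the osteoblast list and had group means of 2793 and 1160 FPKM, while those of Itgb1 were 397.6 and 385.6 FPKM. The median log2 fold change was 0.28 for the macrophage, -0.45 for the mesenchymal and -1.26 for the osteoblast markers tested. The changes of Fgf7, Fgfr1, Fgfr2, Fgfr3 and Spry1 thus ran in the direction of the mesenchymal and osteoblast medians, though not of every marker on these lists. The part of cell makeup or of osteoblast differentiation in these changes was not tested. Of the 7 osteoblast markers, led by Spp1, Col1a1 and Alpl, 6 were lower and 1 (Spp1) was higher, with sums of 4993 and 5477 in siScr cells and 5843 and 5698 in siZBP1 cells that are mostly Spp1 and Col1a1. Epithelial markers summed to at most 0.0670 FPKM in a sample, with Krt14, Krt18 and Cldn4 listed at 0 throughout, and endothelial markers, led by Kdr, Emcn and Cdh5, to at most 5.68 FPKM. The adipocyte markers Plin1 and Cidec were listed at 0 in all samples; of the 4 tested on that list, which is led by Lpl, Fabp4 and Cebpa, 1 was lower and 1 higher, and the list summed to 389.6 and 405.3 FPKM in siScr cells and 441.2 and 464.2 FPKM in siZBP1 cells.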

How the data were processed

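RNA-seq was performed by the authors on 4 samples, 2 per group; libraries were made with the TruSeq RNA kit and mapped with TopHat to mm10. The authors deposited FPKM values per gene symbol, extracted with HTSeq by the methods, while the processing notes also name Cufflinks; annotation, strand setting and filters are not given in the sources used here. Read counts are not part of the table. From the spacing of values under 0.05 FPKM, relative depths of 1.00 and 1.34 for siScr and 0.717 and 1.16 for siZBP1 were estimated, and no counting error was derived from them. Of the rows, 4 carry a symbol that occurs in 2 rows, and none of these is named here.

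In R 4.3.3, limma 3.58.1 was fitted, its prior variance following a trend, to log2(FPKM + 1) of the 11959 rows with a mean of at least 1 FPKM, and p-values were adjusted by Benjamini–Hochberg over all of them. Fold changes on this scale understate those of low genes. Whether replicates came from separate cultures is not stated, so p-values measure the spread between these samples, which may be technical. Python 3.11.15 was used for the rest. Positions, transcripts and 3' UTRs came from GENCODE M21 on GRCm38, the same assembly as mm10, and promoters from RefSeq.

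The 10 genes and the lists were chosen with earlier results of these data known. All 10 are described. Of each pathway list, up to 5 genes past the threshold and at least 1.5-fold apart by the ratio of the group means were named, with the 2 most abundant genes, and Dusp6, Etv4, Etv5 and Spred1 in any case; of each marker list, the 3 most abundant genes and markers at 0. Alternatives were the pseudocount, the filter, normalization, variance model, replicate block, the 1.5-fold rule and leaving out each sample.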

Additional observations from a re-analysis of the deposited data

How the results depend on the processing

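With all samples, the 5 lower genes kept their direction under all 10 limma alternatives, and each stayed past the threshold except Fgfr3 with quantile normalization (adjusted p = 0.0531); Fgfr3 is under the filter of 5 FPKM. Fgfrl1 and Spry2 passed under none. With a sample left out, limma called from 1 to 4 of the 10 genes lower, from 1 to 18 pathway genes lower and from 0 to 8 higher. The lowest counts came without siZBP1 replicate 1 or 2, where 1 of the 10 genes, Fgf7, and 1 pathway gene were called lower and 0 higher; over all genes the limma calls then fell from 1766 lower and 1618 higher to 48 and 22, and to 113 and 32. Without siScr replicate 1 the pathway genes called higher were 3, and all genes 938 lower and 713 higher. Without siZBP1 replicates 1 and 2, the limma adjusted p was 0.110 and 0.107 for Fgfr1, 0.0815 and 0.0679 for Fgfr2, and 0.0684 and 0.0572 for Spry1; Fgfr3 was under the filter without either siScr replicate. These fits take the spread of a lone sample from the opposite group. The limma log2 fold change of Zbp1 ranged from -2.79 to -2.33 with a sample left out, with adjusted p = 0.0618 and 0.0510 without siZBP1 replicates 1 and 2. By the 1.5-fold rule, which needs no filter, 1 of the 10 genes (Fgf18) was higher. The log2 fold changes of Fgf11 and Fgf13 turned to 0.055 and 0.0036 with quantile normalization, and ran from -0.159 to 0.0881 and from -0.1875 to 0.022 with a sample left out; neither passed the threshold in any fit.

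Replicate numbers are shared between the groups, but nothing ties samples with the same number together, and their deviations over 11959 genes correlated at -0.063. With the replicate block, 5 of the 10 genes were lower, the log2 fold change of Zbp1 was -2.56 (limma adjusted p = 0.00156), pathway genes were 18 lower and 11 higher, and all genes 1654 lower and 1465 higher. Genes of a few fragments, such as Fgf18, are limited by depth.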
